A study of Mus musculus with 13 samples.

Results

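The genes described here encode the proteins of the cytosolic ribosome. They were chosen by symbol among the protein-coding genes of the count table: the Rps genes of the small subunit and the Rpl genes of the large subunit, with Rpsa, Rplp0, Rplp1, Rplp2 and Fau. The kinases named Rps6k were left out. This gave 84 members among 48795 genes, 33 of the small and 51 of the large subunit. Another 5 genes whose symbols fit, Rpl6l, Rps12l1, Rps3a2, Rps3a3 and Rps4l, are annotated as pseudogenes and were not counted as members.

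RNA was sequenced from the right brain hemisphere, without olfactory bulb and cerebellum, at postnatal day 11. The 5 nlsYAP5SA mice carried NexCre +/- and YAP5SAnls +/-, so that a nuclear form of YAP1 that cannot be inhibited by phosphorylation was switched on where NEX (NeuroD6), a gene of neuronal precursors, drives Cre recombinase. The 5 controls were NexCre -/- and YAP5SAnls +/-, that is littermates with the silent transgene and no Cre, from different matings that the labels do not assign to single mice. The 3 C57BL/6 mice were wild type for both alleles and of the same age. All 13 mice were on a C57BL/6J background and both sexes were used. The transgene acts in the NEX lineage and its progeny, whereas the RNA is from all cells of the hemisphere, so a lower level of a transcript can mean fewer cells of a type or less RNA per cell, which cannot be told apart.

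A ribosome holds most of its proteins as single copies, and the cell keeps their synthesis in step. Their mRNAs are short and abundant, and in mammals they begin with a C followed by a run of pyrimidines, the 5′ terminal oligopyrimidine (TOP) motif, through which mTOR signalling and LARP1 adjust their translation together. Growing cells and tumours make many ribosomes, and MYC is a known activator of ribosomal genes. Ribosomal protein mRNAs have also been copied back into the genome very often as processed pseudogenes, which lack introns and resemble the mRNA.

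Totals were between 20871566 and 25524349 estimated counts per sample. CT010467.1, a single row of the table, took 2.44% to 9.74% of them. Yap1 served as the check of the labels: its level was 20.3, 19.9, 20.7, 20.1 and 22.3 CPM (counts scaled by normalized library size) in controls and 24.3, 26.6, 22.6, 24.3 and 23.2 in nlsYAP5SA mice. The groups did not overlap (log2 fold change 0.23 ± 0.062 SE, adjusted p = 0.0361, edgeR). The 5 neuronal markers summed to 3725 to 4206 CPM in every sample, and no gene of the 13 marker lists was at 0 throughout a group. Nothing in the labels says that a mouse gave more than 1 library, so p-values measure the spread between these samples.

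Start sequences are shown for members whose annotated RefSeq start falls on the TOP motif (GRCm38.p6). Each run holds 15 bases before and 15 from the start, and the capitals mark the pyrimidine run that begins with the C at the start. The genes are Fau, which encodes a ubiquitin-like protein fused to ribosomal protein eS30 (chr19:6057932-6057961, plus strand), Rpl15 (chr14:18270972-18271001, minus), Rpl28 (chr7:4792950-4792979, plus), Rps18 (chr17:33955651-33955680, minus) and Rps6, the protein phosphorylated by S6 kinases (chr4:86857353-86857382, minus).
Fau: tgcgcgcccccacttCTTCCTCTTTCTTga
Rpl15: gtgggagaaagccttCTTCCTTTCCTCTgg
Rpl28: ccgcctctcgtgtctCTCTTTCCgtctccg
Rps18: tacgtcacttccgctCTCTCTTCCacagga
Rps6: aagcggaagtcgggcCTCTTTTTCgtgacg

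A start was listed for 64 of the 84 members. A C at the start with at least 4 pyrimidines after it, read on the coding strand, was found in 14 of the 64 (21.9%) and in 3.01% of 27025 genes with a listed start. Within 5 bases of the start such a run began in 30 of the 64 members (46.9%) and in 21.2% of all genes. The single-base position of an annotated start is uncertain, and no match says only that these letters are not at that position.

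The summed level of the 84 members varied more within the groups than between them. In controls the sum was 13427, 12254, 9443, 10774 and 10101 CPM. In nlsYAP5SA mice it was 11590, 9576, 11249, 10679 and 10050 CPM, and in C57BL/6 mice 11635, 13281 and 8883 CPM. All 5 nlsYAP5SA values lay inside the range of the controls, and the lowest and second highest of all values were both from C57BL/6 mice.

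**Figure D1:**
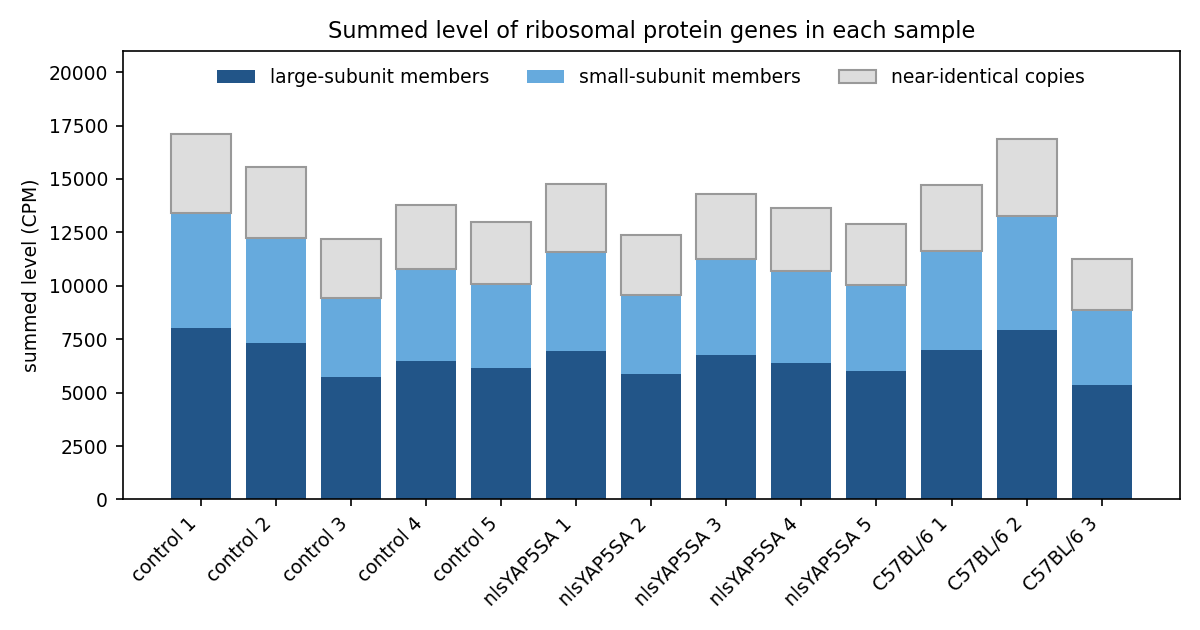
Summed level (CPM, TMM-normalized over all samples) in each of the 13 samples, as stacked bars of the large-subunit members, the small-subunit members and the near-identical copies of members elsewhere in the genome. The members' part runs from 8883 to 13427 CPM, and both extremes belong to groups without active transgene.

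The means were 11200 ± 1624 CPM in controls (SD, n = 5), 10629 ± 830 CPM in nlsYAP5SA mice (SD, n = 5) and 11267 ± 2222 CPM in C57BL/6 mice (SD, n = 3). The mean of nlsYAP5SA mice was 0.949 times that of controls, a difference smaller than the spread among controls, whose highest sum was 1.42 times their lowest. The 2 subunits moved together. Large-subunit members summed to 1.51 times the small-subunit members in the mean of each group, with a range of 1.48 to 1.57 over the 13 samples. As a share of all counts the members took 0.903% to 1.36% of a library.

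The shift from sample to sample was shared by nearly all members. Relative to the mean of controls on the log2 scale, 78 of the 81 members with enough counts lay above 0 in control 1 and 1 of 81 in control 3, and the medians of these samples were 0.29 and -0.23. In C57BL/6 2 and C57BL/6 3 the medians were 0.27 and -0.34, with 76 and 3 of 81 members above 0. In nlsYAP5SA mice the medians were 0.052, -0.21, 0.0022, -0.053 and -0.15, and the number of members above 0 was 59, 6, 43, 17 and 6. The quartiles of the members within control 1, 0.24 and 0.31, show how closely the genes followed each other there.

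Other short transcripts moved with them. For 918 protein-coding genes that are no members and have a transcript of at most 1000 bases, the median was 0.21 in control 1, -0.15 in control 3, 0.22 in C57BL/6 2 and -0.23 in C57BL/6 3. For 4359 genes with a transcript of 4000 bases or more it was -0.16, 0.11, -0.16 and 0.15 in the same samples. The members lay on the side of the short genes in 11 of 13 samples and opposite the long genes in 13 of 13. Normalization kept the median of all genes between -0.0060 and 0.011 in every sample, so these counts are not separate results. Some signs are those of values close to 0, as in nlsYAP5SA 3 (members 0.0022, short genes -0.0044). The part of transcript length in the members' level was not tested. Cell type markers differed between the same samples too: the 5 astrocyte markers summed to 2736 and 3276 CPM in controls 1 and 2, the controls with most ribosomal protein mRNA, and to 4404 to 5203 CPM in the other 3 controls, and the 5 erythroid markers to 594 and 410 CPM against 271 to 277 CPM. Oligodendrocyte markers summed to 2045 and 1887 CPM in controls 1 and 2 against 2931 to 3140 CPM, meningeal markers to 284 and 293 CPM against 361 to 398 CPM, and ciliated ependymal markers to 22.5 and 18.1 CPM against 10.4 to 13.3 CPM. Neuronal markers were higher in controls 1 and 2 (4180 and 4206 against 3983 to 4138 CPM). Excitatory neuron markers were lower there (1090 and 1084 against 1130 to 1226 CPM), as were interneuron markers (567 and 577 against 611 to 631 CPM). Markers of oligodendrocyte precursors, microglia and endothelial cells were lower too, for microglia at 201 and 196 against 232 to 252 CPM. Choroid plexus and proliferation markers overlapped. In C57BL/6 2, which was as high in ribosomal protein mRNA, astrocyte markers stood at 3785 CPM and oligodendrocyte markers at 4170 CPM, the highest of all samples. Their part in the members' level was not tested.

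**Figure D2:**
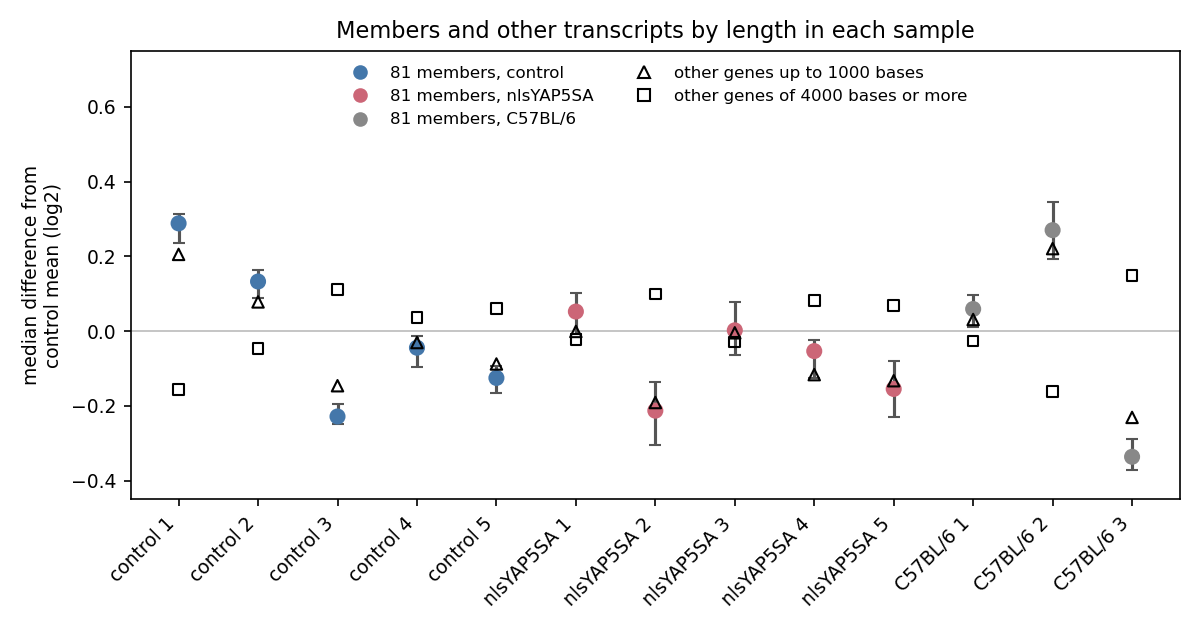
Median difference from the control mean (log2) in each sample for the 81 tested members (filled circles, coloured by group, with bars from the lower to the upper quartile of the members), for 918 other genes of at most 1000 bases (triangles) and for 4359 genes of 4000 bases or more (squares). Circles and triangles lie on the same side of 0 in 11 of 13 samples, and squares lie opposite the circles in 13 of 13, as in control 1 (0.29, 0.21 and -0.16).

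In nlsYAP5SA against control, no member was called. edgeR's quasi-likelihood test was run on 16315 genes, 81 members among them, with Benjamini-Hochberg adjustment over all genes. It called 0 members higher, against 7.36% of all genes, and 0 lower, against 3.44%. At an unadjusted p of 0.05 or less, 8 of the 81 members stood (9.88%), 7 of them lower, against 24.4% of all genes. With a sample left out this count ran from 1 (without control 2) to 20 (without control 3). In those fits it stood beside 22.3% and 26.4% of all genes. DESeq2's Wald test called 1 of 83 members, Rps12, beside 7.61% of all genes in that fit. At that unadjusted p it had 11 of 83 members, beside 14.4% of all genes. For no member did all 5 nlsYAP5SA mice lie above or all below the 5 controls, whereas 6.5% of all genes lay wholly above and 3.57% wholly below.

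The fitted differences were small and mostly negative. The median log2 fold change was -0.078 over the 81 members and -0.0054 over all genes tested, and 67 of 81 members were below 0, compared with 8372 of all 16315 genes. The 33 small-subunit members had a median of -0.078 and the 48 tested large-subunit members -0.075. The 95% confidence interval of the fold change lay within 1.5-fold in either direction (0.58 on the log2 scale) for 75 of the 81 members (92.6%), compared with 74.1% of all genes. Without control 1 the median was 0.0036 and 38 of the 81 were below 0. With counts corrected for GC content and length by an offset, the median was 0.0017, 40 were below 0, and Rps14 was called higher (log2 fold change 0.15 ± 0.042 SE, adjusted p = 0.0333), beside 14.8% of all genes called in either direction.

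**Figure D3:**
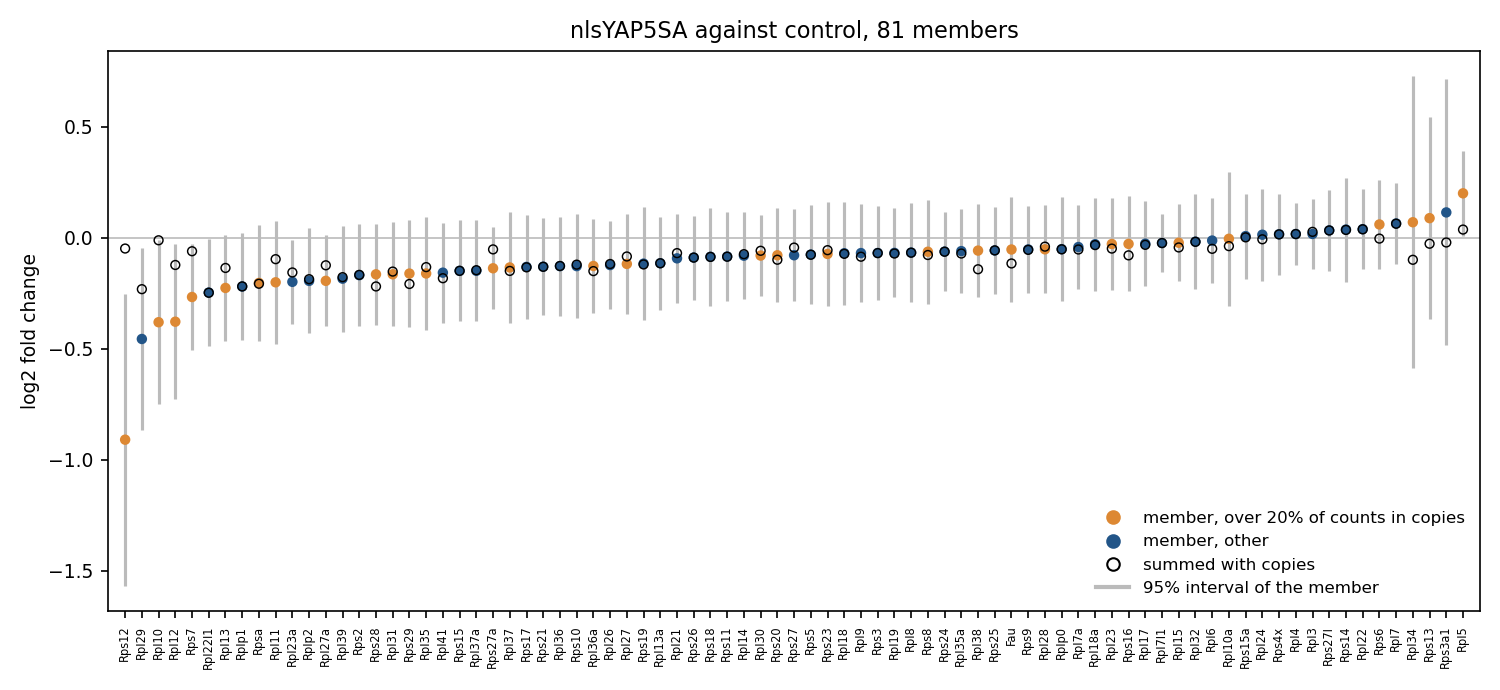
Log2 fold change of each of the 81 tested members, nlsYAP5SA against control, in order of size, with its 95% interval (edgeR). Filled circles are the member alone, orange where over 20% of the counts of the member and its copies are in the copies, and open circles are the member summed with its copies. Most members lie just under 0, and the extremes at both ends move towards 0 once copies are summed, Rps12 from -0.91 to -0.048.

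The 3 lowest fold changes belonged to Rps12, Rpl29 and Rpl10. Rps12, a small-subunit protein (chr10:23785183-23787275, GRCm38), measured 3.02, 5.71, 2.62, 4.53 and 3.49 CPM in controls and 0.948, 3.48, 1.52, 2.22 and 2.20 CPM in nlsYAP5SA mice. The groups overlapped through nlsYAP5SA 2, and the counts behind these values were 21 to 146 per sample over all groups. The log2 fold change was -0.91 ± 0.30 (SE, adjusted p = 0.0786, edgeR). Without nlsYAP5SA 2 it was -1.17 (adjusted p = 0.0277), and DESeq2 gave -0.91 (adjusted p = 0.0322).

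Rpl29, a large-subunit protein also known for binding heparin (chr9:106429454-106431568), measured 211, 186, 151, 166 and 149 CPM in controls. In nlsYAP5SA mice it measured 163, 145, 90.4, 154 and 79.2 CPM, so that replicates 3 and 5 stood well below the others. The log2 fold change was -0.46 ± 0.19 (SE, adjusted p = 0.157, edgeR). Rpl10, which lies near the peptidyl transferase centre (chrX:74270812-74273135), measured 57.2, 53.6, 32.7, 28.5 and 37.2 CPM in controls and 30.3 to 34.2 CPM in nlsYAP5SA mice. Here the spread was that of the controls, and the log2 fold change was -0.38 ± 0.17 (SE, adjusted p = 0.191, edgeR).

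The 3 highest fold changes belonged to Rpl5, Rps3a1 and Rps13. Rpl5, which binds 5S ribosomal RNA with Rpl11 (chr5:107900502-107909005), ranged from 42.0 to 53.4 CPM over controls and from 48.9 to 65.8 CPM over nlsYAP5SA mice (log2 fold change 0.20 ± 0.088 SE, adjusted p = 0.183, edgeR). Rps3a1, of the small subunit (chr3:86137940-86142702), measured 305, 292, 123, 266 and 130 CPM in controls and 283, 133, 268, 270 and 260 CPM in nlsYAP5SA mice. It fell into 2 sets of values that cut across the groups. Its log2 fold change was 0.11 ± 0.28 (SE, adjusted p = 0.846, edgeR). Rps13 (chr7:116331505-116334195) measured 17.4 to 35.0 CPM in controls and 18.2 to 36.2 CPM in nlsYAP5SA mice, with a log2 fold change of 0.089 ± 0.21 (SE, adjusted p = 0.842, edgeR). Rps3a1 and Rps13 had intervals that reached both above and below 0.

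All 6 of these members have near-identical copies in the genome. RSEM divides a read that matches several transcripts among them, and 79 of the 84 members had at least 1 near-identical copy among the annotated transcripts, with 517 copies in all (at least 95% identity over 80% of the shorter transcript). Of these, 505 are processed pseudogenes and 11 are annotated as protein-coding. In the median tested member, 55.5% of all stretches of 50 bases occurred unchanged in a transcript of another gene, and 49 of the 81 had over 50% in common (60.5%). Among 14568 other protein-coding genes tested, the median was 0% and 3.52% had over 50% in common.

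The copies held 21.1% to 22.6% of the summed level of members and copies in the 13 samples. They held over 20% of a member's summed level for 31 members and over 50% for 16. For Rps12 it was 97.3%, for Rpl12 96.8%, for Rpl27 91.9%, for Rpl10 84.3%, for Rpl5 80.6% and for Rps13 73.0%. For Rpl22, Rps2, Rps4x, Rplp1 and Rpl7 it was under 2%. Among the 31 members with over 20% in copies, log2 fold changes in nlsYAP5SA against control had an SD of 0.19, compared with 0.094 among the other 50. The 31 include Rps12, whose -0.91 rests on 21 to 146 counts and widens that SD.

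The coding sequence of Rps12, 399 bases long, is the same in every base in Rps12l1 on chromosome 7 and in Rps12-ps3 on chromosome 19. Coding bases 15 to 104 (GENCODE M21, GRCm38, chr10:23786791-23786880, minus strand), counted from the A of the start codon, are shown because no read inside them can tell the 3 genes apart.
Rps12: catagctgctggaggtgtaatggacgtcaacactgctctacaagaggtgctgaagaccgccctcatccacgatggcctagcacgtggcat

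Rps12l1 was listed at 54.9 to 88.6 CPM and Rps12-ps3 at 23.9 to 40.5 CPM over the 13 samples, far above Rps12 itself. Summed with its copies, Rps12 measured 132, 121, 90.3, 108 and 98.2 CPM in controls and 118, 91.9, 107, 115 and 102 CPM in nlsYAP5SA mice. The groups lay over each other, and the log2 fold change of the sum was -0.048 ± 0.10 (SE, adjusted p = 0.824, edgeR). For Rpl10, whose 645 coding bases are all found in Rpl10-ps3 on chromosome 9, the sum gave -0.011 ± 0.095 (SE, adjusted p = 0.962, edgeR). For Rpl5 the sum with copies gave 0.037 ± 0.067 (SE, adjusted p = 0.782, edgeR), in place of 0.20 for the member alone.

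Rps3a1 differs from Rps3a2 (chromosome 14) at 4 of 792 compared coding bases and from Rps3a3 (chromosome 13) at 9 of 795. Coding bases 579 to 668 are shown because they hold several of these differences, in capitals. The stretch of Rps3a1 is chr3:86138488-86138577 (minus strand), that of Rps3a2 chr14:88123141-88123230 (minus) and that of Rps3a3 chr13:108671181-108671270 (plus). In Rps3a1 the capitals mark each base at which either copy differs, and in the copies the bases that differ from Rps3a1.
Rps3a1: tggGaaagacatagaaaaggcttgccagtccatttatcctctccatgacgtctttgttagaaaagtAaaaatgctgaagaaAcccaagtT
Rps3a2: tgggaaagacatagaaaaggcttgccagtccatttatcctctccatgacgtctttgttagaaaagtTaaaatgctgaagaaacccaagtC
Rps3a3: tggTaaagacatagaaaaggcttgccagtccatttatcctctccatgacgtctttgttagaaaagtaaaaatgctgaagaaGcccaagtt

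The 3 samples with little Rps3a1 were those with much of its copies. In control 3, control 5 and nlsYAP5SA 2, Rps3a2 was listed at 69.6, 74.1 and 81.3 CPM and Rps3a3 at 46.7, 52.3 and 43.3 CPM. In the other 10 samples Rps3a2 was at 1.01 to 3.85 CPM and Rps3a3 at 0.126 to 1.25 CPM. The sum of Rps3a1 and its copies was 309, 296, 240, 269 and 256.5 CPM in controls and 286, 258, 273, 274 and 262 CPM in nlsYAP5SA mice, with no separate set of low values. Its log2 fold change was -0.021 ± 0.072 (SE, adjusted p = 0.895, edgeR), so the standard error fell from 0.28 and the sign turned.

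The low values of Rpl29 also lay in samples with much of its copies. Its copies Gm13841 (chromosome 5) and Gm8210 (chromosome 1) each differ from it at 3 of 483 coding bases. Both were listed at 28.5 CPM in nlsYAP5SA 3 and 25.1 CPM in nlsYAP5SA 5, and at 0.141 CPM or less in the other 11 samples. Coding bases 211 to 300 are shown, with the only difference of the stretch in capitals (Rpl29 chr9:106431177-106431266, plus; Gm13841 chr5:115801860-115801949, minus; Gm8210, which has the same bases as Gm13841 here, chr1:43189366-43189455, plus).
Rpl29: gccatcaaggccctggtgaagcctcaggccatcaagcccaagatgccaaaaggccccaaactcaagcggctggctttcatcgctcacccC
Gm13841: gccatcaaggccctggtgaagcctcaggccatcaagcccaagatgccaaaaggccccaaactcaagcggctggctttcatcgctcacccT

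Summed with its copies Rpl29 measured 148 CPM in nlsYAP5SA 3 and 130 CPM in nlsYAP5SA 5, next to 146 to 164 CPM in the other nlsYAP5SA mice and 151 to 212 CPM in controls. The sum in nlsYAP5SA 5 was still the lowest of all 13 samples. The log2 fold change of the sum was -0.23 ± 0.099 (SE, adjusted p = 0.169, edgeR). Copies that passed 10 CPM in some samples and stayed under 1 CPM in others were also found for Rps13 (Rps13-ps1, high in 4 samples), Rpl34 (Rpl34-ps1, high in 5) and Rpl10 (Rpl10-ps1, high in 6). Rpl34 had a mean of 29.0 CPM where Rpl34-ps1 was high and 60.2 CPM where it was low, while the sums were 61.7 and 60.5 CPM. The sums did not come as close in every case: that of Rpl29 and its copies had a mean of 139 CPM where Gm13841 was high and 168 CPM where it was low, and that of Rps3a1 251 CPM where Rps3a3 was high and 275 CPM where it was under 1 CPM. These copies were picked for their pattern after their values were seen, and whether reads were placed differently or the copies were transcribed in some mice was not tested.

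**Figure D4:**
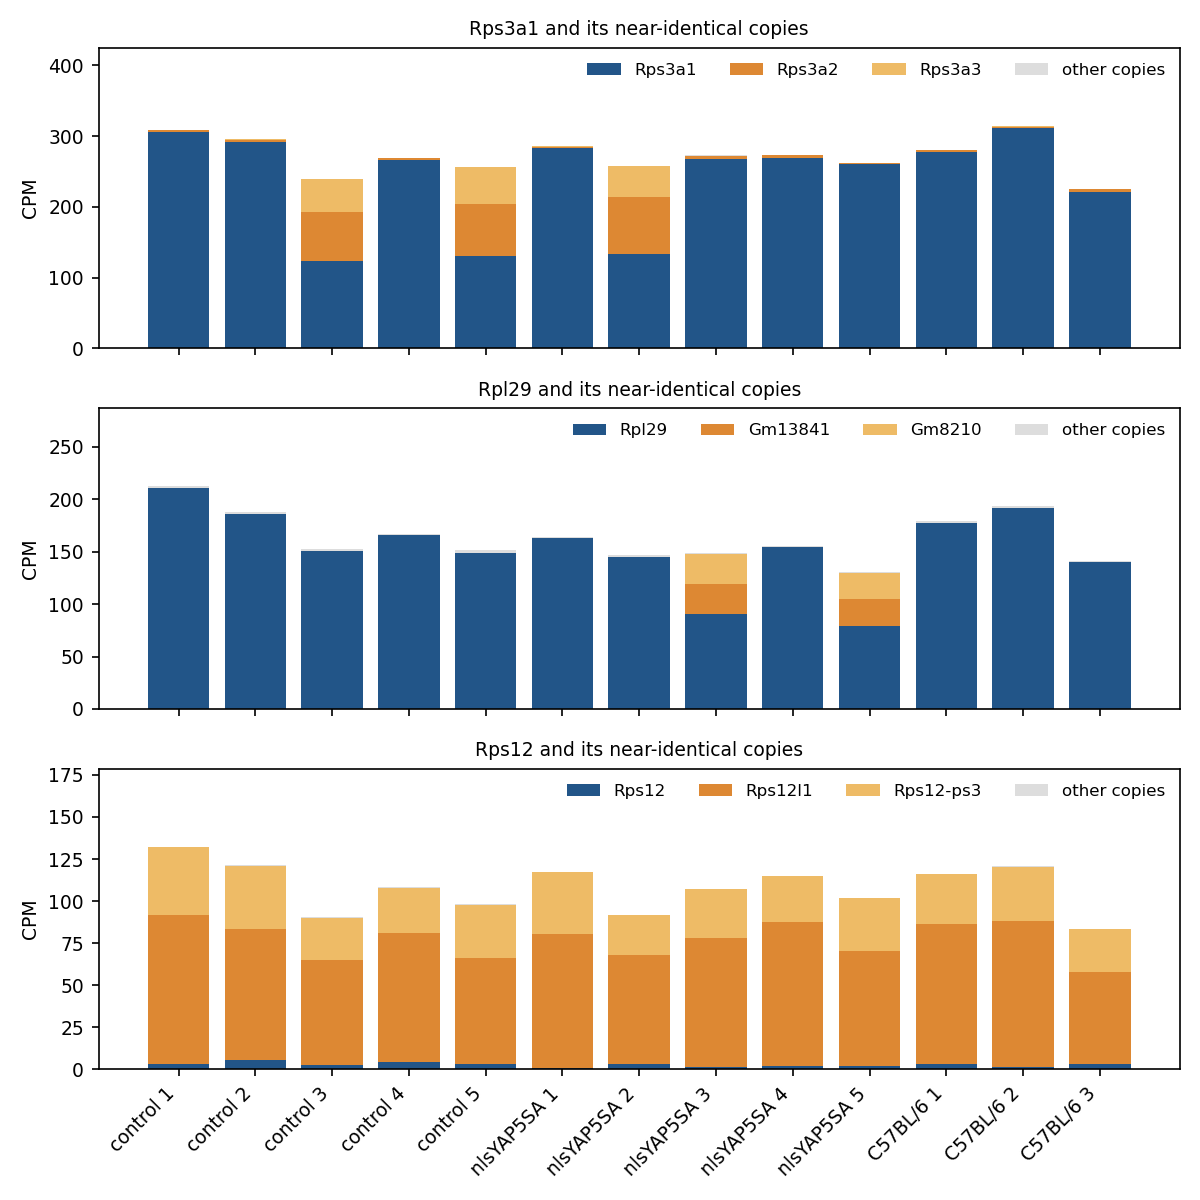
Level (CPM) of Rps3a1, Rpl29 and Rps12 in each of the 13 samples, stacked with that of their copies. The bars of Rps3a1 shrink to 123, 130 and 133 CPM in control 3, control 5 and nlsYAP5SA 2 and those of Rpl29 to 90.4 and 79.2 CPM in nlsYAP5SA 3 and 5, where the copies stand above them, and Rps12 is a thin base under its copies throughout.

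With all members summed with their copies, 0 were called in any of the 3 comparisons (edgeR), beside 10.9% of all genes in nlsYAP5SA against control, 0.176% in C57BL/6 against control and 6.47% in nlsYAP5SA against C57BL/6. At an unadjusted p of 0.05 or less, in the same order, 2, 0 and 1 of the 81 stood, beside 24.5%, 3.70% and 21.1% of all genes. In nlsYAP5SA against control 72 of 81 were below 0, and the median log2 fold change was -0.074. The sum of all members and copies was 14313 ± 1997 CPM in controls (SD, n = 5) and 13596 ± 982 CPM in nlsYAP5SA mice (SD, n = 5). Of the copies themselves, 94 had enough counts to be tested, 0 were called higher and 4 lower (Gm10076, Gm14303, Gm28900 and Rps27a-ps2, named because they are so few), beside 7.36% and 3.44% of all genes.

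Per kilobase of transcript, the tested members spanned from 4.46 to 627 CPM per kb in the mean of all samples. The 5 highest were Rpl41, the smallest ribosomal protein, at 627 CPM per kb, Rps2 at 480, Rplp1, an acidic stalk protein, at 429, Rps15 at 417 and Rpl23a at 397. Within each of these the groups overlapped: Rpl41, for one, lay at 225 to 339 CPM among controls, at 229 to 278 CPM in nlsYAP5SA mice and 226 to 336 CPM in C57BL/6 mice. Rps2 measured 425 to 611 CPM in controls and 390 to 495 CPM in nlsYAP5SA mice, Rplp1 188 to 282 and 174 to 218 CPM, Rps15 183 to 264 and 176 to 219 CPM, and Rpl23a 204 to 281 and 193 to 231 CPM. The upper end of each of these ranges was control 1 among controls and nlsYAP5SA 1 or 3 among nlsYAP5SA mice.

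The 5 lowest per kilobase were Rpl12 at 4.46, Rps12 at 5.83, Rpl27 at 12.3, Rps27l at 21.4 and Rps20 at 21.7 CPM per kb. Summed with copies, Rps12 stood at 219, Rpl12 at 140 and Rps20 at 31.6 CPM per kb, next to a low of 21.4 for Rps27l, which had no copy. The listed transcript of Rps20, at 3706 bases, is far longer than is usual for a ribosomal protein mRNA, so its value per length is uncertain. Rpl12 measured 4.15 to 7.97 CPM in controls and 3.93 to 5.46 CPM in nlsYAP5SA mice (log2 fold change -0.38 ± 0.16 SE, adjusted p = 0.169, edgeR). Without control 5 it was called lower, at -0.49 (adjusted p = 0.0485, edgeR). Summed with its copies, and with all samples, Rpl12 was at -0.12 ± 0.099 (SE, adjusted p = 0.488, edgeR). Rpl27 measured 6.73 to 9.06 and 6.21 to 7.99 CPM, Rps27l 9.50 to 11.97 and 9.83 to 11.3 CPM, and Rps20 69.6 to 99.4 and 71.8 to 84.0 CPM. In all 4 the ranges of the groups overlapped.

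Some ribosomal proteins have a paralogue that can take their place or that is used in a few tissues. Of 8 pairs of like name, 3 could not be tested because the paralogue had too few counts. Rpl3l, the form of Rpl3 found in striated muscle, had 2 to 9 counts per sample. Rpl39l, known from testis, had 0 to 5. Rpl10l, which replaces the X-linked Rpl10 in male germ cells, had 0 counts in all 13 samples, which allows up to 3 counts in each. Of their partners, Rpl3 was at 355 to 448 CPM in controls and 374 to 440 CPM in nlsYAP5SA mice, and Rpl39 at 70.2 to 104 and 65.5 to 83.7 CPM. Rpl10 was less well measured, at 28.5 to 57.2 and 30.3 to 34.2 CPM, since its copies held 84.3% of its summed level. The 3 members with too few counts are those of the 84 that did not pass the filter.

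Rpl22l1, the paralogue of Rpl22 that takes its place when Rpl22 is lost, was lower relative to Rpl22 in nlsYAP5SA mice. Rpl22l1 (chr3:28805436-28807424) measured 54.3, 47.6, 40.4, 41.2 and 42.4 CPM in controls and 42.7, 29.3, 40.5, 42.3 and 35.9 CPM in nlsYAP5SA mice. Rpl22 (chr4:152325742-152334071) measured 113, 110, 86.5, 93.9 and 94.7 CPM in controls and 113, 93.2, 105, 105 and 96.6 CPM in nlsYAP5SA mice. Each gene overlapped between the groups, but their log2 ratio did not: it was -1.05, -1.20, -1.09, -1.18 and -1.15 in controls and -1.39, -1.65, -1.37, -1.30 and -1.41 in nlsYAP5SA mice. The ratio was not corrected for length, so only its difference between groups can be read.

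The means of the log2 ratio were -1.13 ± 0.061 (SD, n = 5) and -1.43 ± 0.13 (SD, n = 5), a difference of -0.29. The two-sided exact permutation test gave p = 0.00794, the smallest that 5 against 5 allows, and an adjusted p of 0.0397 over the 5 pairs tested. As single genes, Rpl22l1 had a log2 fold change of -0.25 ± 0.11 (SE, adjusted p = 0.195 over all genes, edgeR) and Rpl22 one of 0.039 ± 0.082 (SE, adjusted p = 0.820, edgeR). In C57BL/6 mice the log2 ratio was -1.31, -0.96 and -1.19, and the first of these lies among the nlsYAP5SA values. The copies of Rpl22l1 held 1.498% of its summed level and that of Rpl22 held 0.00335%.

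The other 4 pairs overlapped between groups. For Rps27l to Rps27, where Rps27l is known as a p53 target, the difference in the log2 ratio was 0.10 (exact permutation p = 0.333, adjusted p = 0.405). For Rpl7l1 to Rpl7 it was -0.094 (exact permutation p = 0.127, adjusted p = 0.317). For the pseudogene Rps4l to Rps4x it was -0.075 (exact permutation p = 0.397, adjusted p = 0.405), and for Rpl36al, which the symbol rule did not take, to Rpl36a it was -0.061 (exact permutation p = 0.405, adjusted p = 0.405). The partners measured 78.3 to 112 CPM (Rps27), 200 to 268 CPM (Rpl7), 219 to 295 CPM (Rps4x) and 26.7 to 34.2 CPM (Rpl36a) in controls. In nlsYAP5SA mice they measured 82.1 to 96.1, 226 to 261, 236 to 280 and 24.1 to 34.4 CPM. Rpl7l1 itself stood at 38.5 to 46.2 and 38.7 to 42.3 CPM.

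**Figure D5:**
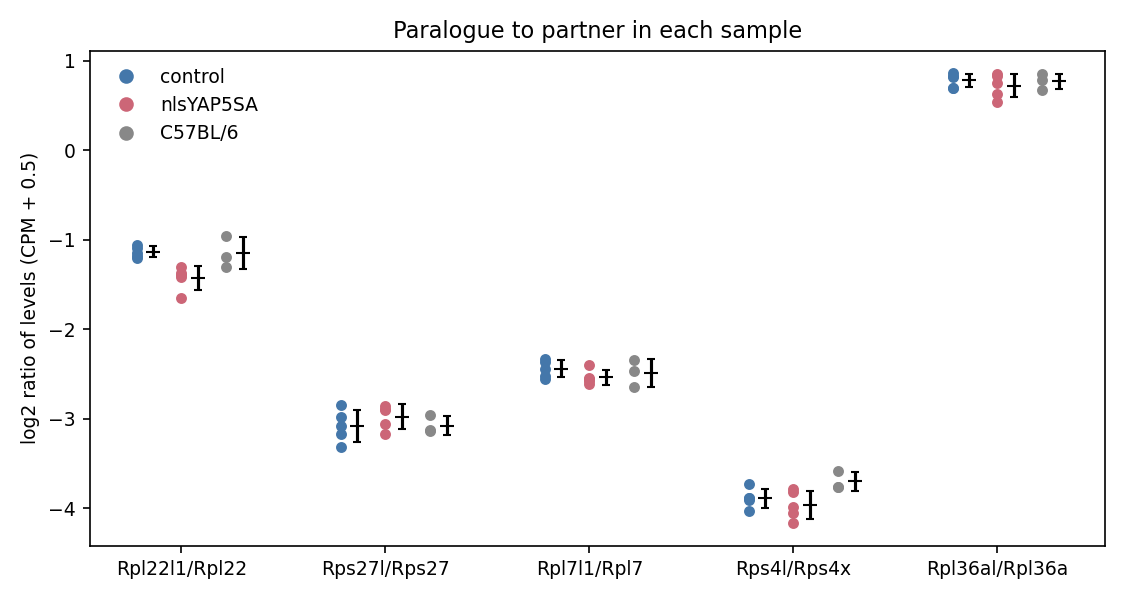
Log2 ratio of a paralogue to its partner (CPM + 0.5) in each sample for the 5 pairs tested, with points coloured by group and bars for mean ± SD. For Rpl22l1/Rpl22 the 5 nlsYAP5SA points, -1.65 to -1.30, lie below all 5 controls, -1.20 to -1.05, and 1 of the 3 C57BL/6 points lies among them, while the groups overlap in the other 4 pairs.

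The calls in other genes of the translation machinery stand beside the 7.36% of all genes called higher and 3.44% called lower. Of the 9 elongation factor genes, 0 were called in nlsYAP5SA against control (edgeR) and the median log2 fold change was -0.11. Eef1a1, which brings aminoacyl-tRNA to the ribosome, was at 0.086, Eef2, which moves it along the mRNA, at 0.0013, and the neuronal form Eef1a2 at -0.18 (adjusted p = 0.0744, edgeR). Of the 36 initiation factor genes, 2 were called higher (5.56%) and 0 lower, with a median of -0.021. These were Eif4b, a partner of the helicase eIF4A (0.25 ± 0.053 SE, adjusted p = 0.00818, edgeR), and Eif2s3x, the X-linked gamma subunit of eIF2 (0.47 ± 0.13 SE, adjusted p = 0.0434, edgeR).

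Of the 9 other protein-coding mRNAs known for a TOP motif, Vim alone was called (11.1%), higher by 1.34 ± 0.094 on the log2 scale (SE, adjusted p = 2.83e-06, edgeR). It encodes vimentin, an intermediate filament of glia and progenitors, at 51.9 ± 4.44 CPM in controls (SD, n = 5) and 132 ± 16.8 CPM in nlsYAP5SA mice (SD, n = 5). Pabpc1, Hnrnpa1 and Nap1l1, the most abundant of the others, were at 0.11, -0.075 and 0.077. Of the 9 small nucleolar RNA host genes with a TOP, 0 were called (edgeR), with a median of 0.087. Gas5, the most abundant, was at 0.087.

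Of the 14 regulators of TOP mRNA translation, Eif4ebp1, which encodes an mTOR-controlled inhibitor of initiation, was called higher (0.98 ± 0.15 SE, adjusted p = 0.0012, edgeR), at 1.44 ± 0.22 CPM in controls (SD, n = 5) and 2.85 ± 0.37 CPM in nlsYAP5SA mice (SD, n = 5). Akt1s1, an inhibitory partner of mTORC1, was called lower (-0.25 ± 0.063 SE, adjusted p = 0.0203, edgeR). Larp1, which binds the TOP motif, was at -0.089 and Mtor at 0.033. Of the 9 genes of the MYC family 0 were called (edgeR), with Myc at 0.18 ± 0.11 (SE, adjusted p = 0.362, edgeR) and a median of 0.048.

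Of 43 matched ribosome biogenesis factors, 0 were called higher and 1 lower: Fbl, the methyltransferase of the box C/D particles (-0.30 ± 0.085 SE, adjusted p = 0.0403, edgeR). The median was -0.040. Ncl, the abundant nucleolin, was at 0.16 (adjusted p = 0.0563, edgeR). Of the 14 genes of RNA polymerase I and its factors, 0 were called (edgeR), with a median of -0.038. Of 78 mitochondrial ribosomal protein genes, which serve the organelle's own ribosome, 0 were called higher and 5 lower (Mrpl12, Mrpl3, Mrpl34, Mrpl35 and Mrpl42, at -0.37 to -0.21), 74 were below 0, and the median was -0.15. As shares these are 0% higher and 6.41% lower, beside 7.36% and 3.44% of all genes. Their median lay below that of the cytosolic members, and the difference between the 2 families was not tested.

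Cell type markers moved between the same 2 groups. Of 5 microglial markers 4 were called higher in nlsYAP5SA mice, where they summed to 292 to 385 CPM, against 196 to 252.1 CPM in controls. Of 5 astrocyte markers 2 were called higher (4020 to 5886 against 2736 to 5203 CPM), and 1 of 5 ciliated ependymal markers (23.1 to 25.4 against 10.4 to 22.5 CPM). Of 5 endothelial markers 2 were called lower (142 to 186 against 180 to 209 CPM), 2 of 5 of oligodendrocyte precursors (504 to 589 against 557 to 639 CPM) and 1 of 5 of excitatory neurons (919 to 1096 against 1084 to 1226 CPM). No oligodendrocyte marker was called (1221 to 2595 against 1887 to 3140 CPM), nor any pan-neuronal, interneuron, erythroid or proliferation marker, and of 5 meningeal markers 1 was called higher and 1 lower. Choroid plexus markers, 1 of 6 called higher, ranged from 10.7 to 306 CPM in nlsYAP5SA mice and from 9.15 to 232 CPM in controls. The part of cell composition in the levels of the members was not tested.

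In C57BL/6 against control, the comparison of the background strain with the transgenic littermates, 0 of 81 members were called higher, against 0.0484% of all genes, and 0 lower, against 0.121% (edgeR). At an unadjusted p of 0.05 or less, 1 of 81 stood, against 3.78% of all genes, and DESeq2 called 0 members and 0.203% of all genes. The median log2 fold change was 0.010, and without C57BL/6 2 or C57BL/6 3 it was -0.14 or 0.14. Rps12, Rpl10 and Rpl5 were at -0.59, -0.56 and 0.19 (adjusted p = 0.9996 for each, edgeR), and summed with copies at -0.044, -0.036 and 0.046. For 75 of 81 members the 95% interval lay within 1.5-fold.

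In nlsYAP5SA against C57BL/6, which shares its nlsYAP5SA samples with the first comparison, 0 of 81 members were called higher, against 4.16% of all genes, and 0 lower, against 2.22% (edgeR). At an unadjusted p of 0.05 or less, 2 of 81 stood, against 21.0% of all genes, and DESeq2 called 0 members and 5.30% of all genes. The median was -0.11, with 73 of 81 below 0. With the offset for GC content and length, 43 of 81 were below 0, and the alternatives with all samples gave medians of -0.10 to -0.011. The count of members called changed without C57BL/6 3, the low library. In that fit, with 2 wild-type mice, 10 members were called lower and 1 higher (edgeR), 53 of 81 stood at an unadjusted p of 0.05 or less, and the median was -0.26. Of all genes, 10.4% were called in that fit and 31.9% stood at that unadjusted p. The 10 were Rpl13, Rpl27a, Rpl28, Rpl30, Rpl35, Rpl41, Rplp1, Rplp2, Rps16 and Rps6, at -0.48 to -0.33, and the one higher was Rpl10, at 0.35 (adjusted p = 0.0270, edgeR). Of these 11, Rpl13, Rpl27a, Rpl28, Rpl30, Rpl35, Rps16, Rps6 and Rpl10 had over 20% of their level in copies. In the fit with all 3 wild-type mice, Rps6 was at -0.29 alone and -0.051 summed with copies, and Rpl10 at 0.17 and 0.014. Rpl10-ps1 was listed at 58.0 CPM in C57BL/6 2, its highest value. Without C57BL/6 2, the high library, the median was 0.053 and 0 members were called, beside 3.43% of all genes.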

How the data were processed

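RNA-seq of 13 samples was analysed (5 control, 5 nlsYAP5SA, 3 C57BL/6), grouped by the labels. The authors trimmed reads with CutAdapt, mapped them with STAR, and deposited estimated counts per gene from RSEM 1.3.0 on Ensembl release 86 (GRCm38), not normalized or filtered. Read length and strand setting are not given in the sources used here, and overlapping or antisense genes are uncertain. All columns were used. The members and all gene lists were chosen with earlier results of these data known.

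Estimated counts were rounded. Per comparison, edgeR 4.0.16 (R 4.3.3; TMM; filterByExpr with minimum count 10 and total 15; quasi-likelihood test, two-sided) was fitted to the 2 groups compared, with Benjamini-Hochberg adjustment over all genes, and 0.05 was the limit for a call. CPM used TMM over all 13 samples. Positions, lengths and transcripts are from GENCODE M21 (with an entry for 48435 of the 48795 genes), with the shortest principal transcript as length. Copies were found with blastn 2.17.0 (at least 95% identity, 80% of the shorter transcript and 100 bases), and a copy went to the member it resembled most. Start sequences are from RefSeq. Paralogue ratios used a pseudocount of 0.5 CPM and exact permutation tests in scipy 1.17.1. Genes named with values in each sample were the 3 highest and 3 lowest fold changes, the 5 highest and 5 lowest levels per length, the paralogue pairs and any called member. From the other lists they were called genes and up to 3 of highest level. The alternatives were DESeq2 1.42.0 (Wald test, and its size factors in edgeR), library size alone or without CT010467.1, no filter, at least 10 counts in every sample, a fit of all 13 samples, a block by replicate number, an offset for GC content and length, and each sample left out. Summing copies was added after the data were seen. The fits were tested on simulated data. No pair of replicates agreed within sampling noise (lowest chi-square per degree of freedom 6.39). Estimated counts summed to 20871566 to 25524349 per sample, and counting limits cover counting error only.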

Additional observations from a re-analysis of the deposited data

Results flagged for a closer look

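A single value among the levels named above stood apart from its group by Dixon's test at 95%: Rps3a1 in nlsYAP5SA replicate 2, at 133 CPM, next to 260 to 283 CPM in the other 4 nlsYAP5SA mice. Over 52 groups of 5 values looked at, chance alone would give about 1 in 20. The copies Rps3a2 and Rps3a3 were listed at 81.3 and 43.3 CPM in that library, and the sum of the 3 genes, 258 CPM, did not stand apart. Control 3 and control 5 had the same low Rps3a1, but as a pair they cannot be marked by this test.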

How the results depend on the processing

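In nlsYAP5SA against control the count of members called lower was 0, and 1 with DESeq2's Wald test (Rps12), 2 with the replicate number as a block (Rps12 and Rpl29) and 0 to 1 when a sample was left out (Rpl12 without control 5, Rps12 without nlsYAP5SA 2). The count called higher was 0, and 1 with the offset for GC content and transcript length (Rps14). Of all genes, these fits called 7.61% (DESeq2), 7.59% (block), 7.34% to 11.5% (a sample left out) and 14.8% (offset) in either direction. The numbers of the labels did not pair the samples, since same-numbered samples had correlations of their deviations of -0.24 to 0.18 in that comparison and up to 0.34 in those with C57BL/6, so the block says nothing of a weaker or stronger effect. Left-out samples gave medians of -0.13 to 0.0036 in that comparison, -0.14 to 0.14 in C57BL/6 against control and -0.26 to 0.053 in nlsYAP5SA against C57BL/6. In the last, the counts ran from 0 to 1 higher and from 0 to 10 lower, the upper ends without C57BL/6 replicate 3. The other planned settings called 0 members.

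The difference in the log2 ratio of Rpl22l1 to Rpl22 was -0.32 to -0.23 with a sample left out, below 0 each time, but with 4 against 5 samples a single pair cannot pass 0.05 after adjustment over 5 pairs. Among the members chosen to be named with values in each sample, Rps13 (-0.026) and Rps3a1 (-0.021) changed sign with copies summed, where 72 of all 81 were below 0 in place of 67. With the offset, which left 40 below 0, Rpl7l1 (0.010) and Rps27 (0.028) did. With a sample left out, the range crossed 0 for Rpl22 (-0.012 to 0.093), Rpl3 (-0.026 to 0.066), Rpl7l1 (-0.055 to 0.020), Rps13 (-0.062 to 0.26), Rps20 (-0.13 to 0.0081), Rps27 (-0.14 to 0.0043), Rps27l (-0.0037 to 0.091), Rps3a1 (-0.042 to 0.27) and Rps4x (-0.038 to 0.079). None of these was called in any setting. Low counts limit Rps12 and Rpl12, shared sequence with copies limits the members that have them, also Rps3a1 and Rpl29 with under 20% of the level in copies, and 3 wild-type mice limit both comparisons with C57BL/6.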
